A study of Rattus norvegicus with 4 samples.

Results

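The complement genes described here are 9 of the 13261 genes used from an expression table of rat glomeruli, found by their symbols: the components C1qa, C1qb, C1qc, C1s and C3, and the regulators Cd55, Cd59, Cd46 and Serping1. All 9 symbols were present, each in a single row. The 4 samples form a single group of male Wistar rats, each given ADR (Adriamycin, also called doxorubicin) into a vein; this anthracycline injures podocytes and causes nephrotic syndrome in rodents. Glomeruli, the filtering units of the kidney, were isolated by sieving, and polyadenylated RNA was sequenced from stranded libraries. Which of the listed harvest days applies to them, their age and the dose are not given in the labels. Untreated rats and the agonist-treated rats of the wider study were not analysed here, so the values are levels and differences between ADR animals, not effects of ADR.

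Complement is a cascade of plasma and tissue proteins that tags and lyses targets. In the classical pathway C1q, a hexamer of A, B and C chains, binds antibody or surface patterns, and its proteases C1r and C1s then cleave C4 and C2. All pathways meet at C3, whose fragments coat surfaces and lead to the terminal lytic pore. Glomerular cells restrain this with membrane proteins such as Cd55, Cd59 and, in rodents, Crry (the product of Cr1l), and in the fluid phase with proteins such as the C1 inhibitor encoded by Serping1. In the kidney C1q is made mainly by macrophages, while podocytes, mesangial and tubular cells can make C3.

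Libraries held 13566962 to 16207027 reads in the genes used, and replicate numbers only name the animals. Nothing in the labels says how the samples were kept apart beyond their listing as separate samples, so every p-value measures the spread between these samples, which may in part be technical. Levels are deposited log2 CPM values, in which each library is brought to a common total. They are not per transcript length, so levels of different genes are not ranked against each other. Podocyte markers were measured for 8 of 8 genes, endothelial markers for 7 of 8 and mesangial markers for 6 of 6, and none had 0 reads in any sample. Proximal tubule markers were also present (7 of 7 genes), with a summed level of 2468 to 5007 CPM against 5500 to 9751 CPM for the podocyte genes. In such bulk samples fewer cells of a type and less RNA per cell cannot be told apart.

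Of the 9 members, 8 differed between animals by more than read sampling, and Cd46 did not pass (chi-square test on reads, Benjamini-Hochberg adjusted p under 0.05 over all genes). Of all genes tested, 69.5% passed, so passing was common and is not particular to complement. Against genes of like level, limma's variance test called 0 of the 9 at an adjusted p under 0.05, as it did for 0% of all genes. The smallest adjusted p of that test over all genes was 0.912, so its count of 0 does not show that the members were even. At an unadjusted p under 0.05 it gave 3 of 9 (C1s, C3 and Cd55), against 5.47% of all genes. The members' SD of log2 CPM had a median of 0.37, against 0.18 over all genes.

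**Figure D1:**
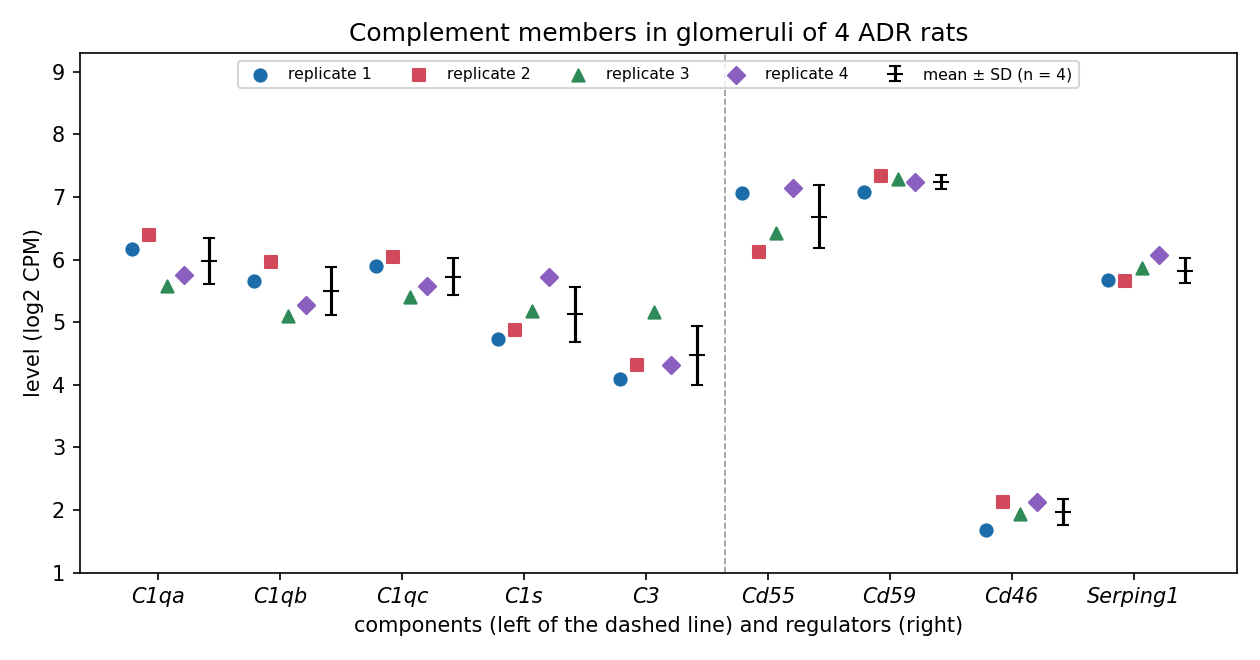
Level of each complement gene in log2 CPM (vertical axis) in the 4 ADR animals, with points for single animals and bars for the mean ± SD (n = 4). Replicate 2 was highest for the 3 C1q chains and lowest for Cd55, while Cd59 stayed between 7.08 and 7.34.

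The 3 C1q chains were highest in replicate 2, next in replicate 1, then in replicate 4, and lowest in replicate 3. C1qa (ENSRNOG00000012807), the A chain, had 976, 1357, 736 and 823 reads in replicates 1 to 4, or 6.17, 6.39, 5.58 and 5.76 log2 CPM. Its mean was 5.97 ± 0.37 log2 CPM (SD, n = 4), and the highest animal had 1.75 times the level of the lowest (adjusted p = 4.2e-41, chi-square test on reads). C1qb (ENSRNOG00000012749), the B chain, had 685, 1012, 527 and 592 reads, or 5.66, 5.97, 5.10 and 5.28 log2 CPM. The order of the animals was thus that of the A chain, with a mean of 5.50 ± 0.39 log2 CPM and a 1.82-fold range (adjusted p = 1.33e-33). C1qc (ENSRNOG00000012804), the C chain, had 810, 1061, 646 and 729 reads, or 5.90, 6.03, 5.40 and 5.58 log2 CPM. Its mean was 5.73 ± 0.29 log2 CPM and its range 1.55-fold (adjusted p = 1.73e-20). The unadjusted p of limma's variance test was 0.06 for C1qa, 0.059 for C1qb and 0.125 for C1qc.

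Within an animal the chains kept nearly fixed proportions. The difference of C1qa and C1qb was 0.51, 0.42, 0.48 and 0.48 on the log2 CPM scale in replicates 1 to 4. The SD of that difference, 0.04, was smaller than the mean standard error that read counting alone gives, 0.07. The difference of C1qa and C1qc had an SD of 0.08, against a counting error of 0.07, and that of C1qb and C1qc had 0.11 against 0.08. In the RefSeq annotation of GRCr8 the 3 genes are direct neighbours, with C1qc between C1qb and C1qa. For comparison, C1r and C1s are also direct neighbours there, and their difference had an SD of 0.25.

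Because the chains moved together, the 250 bases before the annotated start of 2 of them are shown, from the RefSeq promoter table (GRCr8), which held 5 of the 9 members: C1qa, C1qb, C3, Cd55 and Cd46. C1qa lies at chr5:154419934-154420183 and C1qb at chr5:154407828-154408077, both on the minus strand and written 5′ to 3′ along the gene. Capitals mark matches on either strand to GAGGAA, a sequence bound by the myeloid factor PU.1, or to TTCNNNGAA, the gamma-activated sequence bound by STAT factors. Other forms of these sites were not searched for.
C1qa: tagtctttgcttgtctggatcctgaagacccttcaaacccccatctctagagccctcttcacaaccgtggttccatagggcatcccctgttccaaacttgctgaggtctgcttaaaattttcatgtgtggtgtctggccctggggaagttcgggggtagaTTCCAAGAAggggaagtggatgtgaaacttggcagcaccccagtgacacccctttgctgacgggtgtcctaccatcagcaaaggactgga
C1qb: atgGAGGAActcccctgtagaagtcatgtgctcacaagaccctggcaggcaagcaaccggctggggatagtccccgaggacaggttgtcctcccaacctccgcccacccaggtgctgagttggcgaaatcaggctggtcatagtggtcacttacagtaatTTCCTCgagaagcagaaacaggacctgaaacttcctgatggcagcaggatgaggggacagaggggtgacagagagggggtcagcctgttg
C1qa held 1 match to TTCNNNGAA, from base -90 to base -82 before the start, and C1qb held 2 matches to GAGGAA, from -247 to -242 and from -90 to -85. GAGGAA was found in 23.3% of 33469 rat promoter windows of this length, and TTCNNNGAA in 7.67%. The core of the interferon-stimulated response element, present in 3.41% of windows, and the TATA box TATAAA, present in 12.9%, matched neither of the 2. Of the 4 motifs none matched in the C3, Cd55 or Cd46 window. Such matches describe the letters of these windows and are not sites of binding.

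Since C1q is a macrophage product, its level was set beside 13 of 14 macrophage markers (Cd163 was not used). Of these genes, 1 is also in the podocyte list. The macrophage list mean was 5.10, 5.45, 5.55 and 5.42 log2 CPM in replicates 1 to 4, lowest in replicate 1 and highest in replicate 3, and its summed level ran from 696 to 1012 CPM. The C1q chains' mean was 5.91, 6.13, 5.36 and 5.54 log2 CPM, lowest in the animal in which the macrophage list was highest. Single macrophage genes were divided, with 6 of the 13 highest in replicate 3 and 5 highest in replicate 2, the animal with the most C1q. The difference of the C1q mean and the macrophage list mean was 0.81, 0.68, -0.19 and 0.12 in replicates 1 to 4; its sign depends on transcript length, and only its change between animals can be read. Set against Csf1r, the macrophage growth factor receptor and a gene of this list, the difference was -0.42, -0.50, -1.45 and -1.03. Csf1r was chosen after its values were seen, and no other gene of the list was compared singly. The proximal tubule list was also lowest in replicate 3, 0.66 below its own mean (-0.66), but highest in replicate 1 (0.45). The parietal epithelial list was lowest in replicate 3 (-0.36) and highest in replicate 2 (0.18). The part of these cell types in the C1q pattern was not tested.

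C1s, the protease that cleaves C4 and C2, had a different order of animals from C1q. C1s (ENSRNOG00000011971) had 358, 476, 558 and 803 reads in replicates 1 to 4, or 4.72, 4.88, 5.19 and 5.72 log2 CPM. Replicate 4 was highest, at 1.99 times replicate 1, and the mean was 5.13 ± 0.44 log2 CPM (SD, n = 4; adjusted p = 1.13e-35, chi-square test on reads). Without replicate 4 the SD was 0.24 and the difference between animals still passed (adjusted p = 1.11e-05, chi-square test on reads). Its partner C1r, which activates C1s, had 1739, 1633, 2190 and 2671 reads, and was also highest in replicate 4 but lowest in replicate 2. The log2 difference of the C1q mean and C1s was 1.19, 1.25, 0.18 and -0.18 in replicates 1 to 4, so it separated replicates 1 and 2 from replicates 3 and 4. The mesangial list (6 of 6 measured) was also highest in replicate 4, 0.29 above its mean, with a summed level of 1753 to 2236 CPM. The neutrophil list (2 of 4 measured) was lowest in replicate 1 (-1.46) and highest in replicates 3 and 4 (1.02 and 1.04), with 6.27 to 35.7 CPM. No marker of either list had 0 reads, and the part of these cells in the C1s level was not tested.

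C3, the component on which all pathways converge, was highest in replicate 3. C3 (ENSRNOG00000046834) had 230, 323, 547 and 303 reads in replicates 1 to 4, or 4.09, 4.32, 5.16 and 4.32 log2 CPM. The other 3 animals lay within 0.23 of each other, and replicate 3 had 2.1 times the level of replicate 1. The mean was 4.47 ± 0.47 log2 CPM (SD, n = 4; adjusted p = 4.28e-29, chi-square test on reads). Without replicate 3 the difference between animals did not pass the test (adjusted p = 0.159, with 1.26e-29 to 0.159 over the 7 alternatives run). Several marker lists were also highest in replicate 3. The list of T and B cell genes (3 of 6 measured) stood 1.22 above its mean there, with a summed level of 3.98 to 18.8 CPM over the animals. The erythroid list (3 of 3) stood 0.50 above its mean, with 720 to 1337 CPM. The endothelial list (6 of its 7 measured genes highest in replicate 3) stood 0.21 above its mean with 5479 to 7113 CPM, the fibroblast list (3 of 5 measured, 1 of them highest in replicate 3) 0.20 with 389 to 664 CPM, and the macrophage list 0.17. Lists of other cells were below their mean in replicate 3, at -0.66 for proximal tubule (7 of 7 genes lowest there), -0.36 for parietal epithelial cells, -0.11 for podocytes and -0.03 for mesangial cells. The neutrophil list was at nearly the same level in replicates 3 and 4, as given above. None of these markers had 0 reads in any sample, and the part of such cells in the C3 level was not tested.

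**Figure D2:**
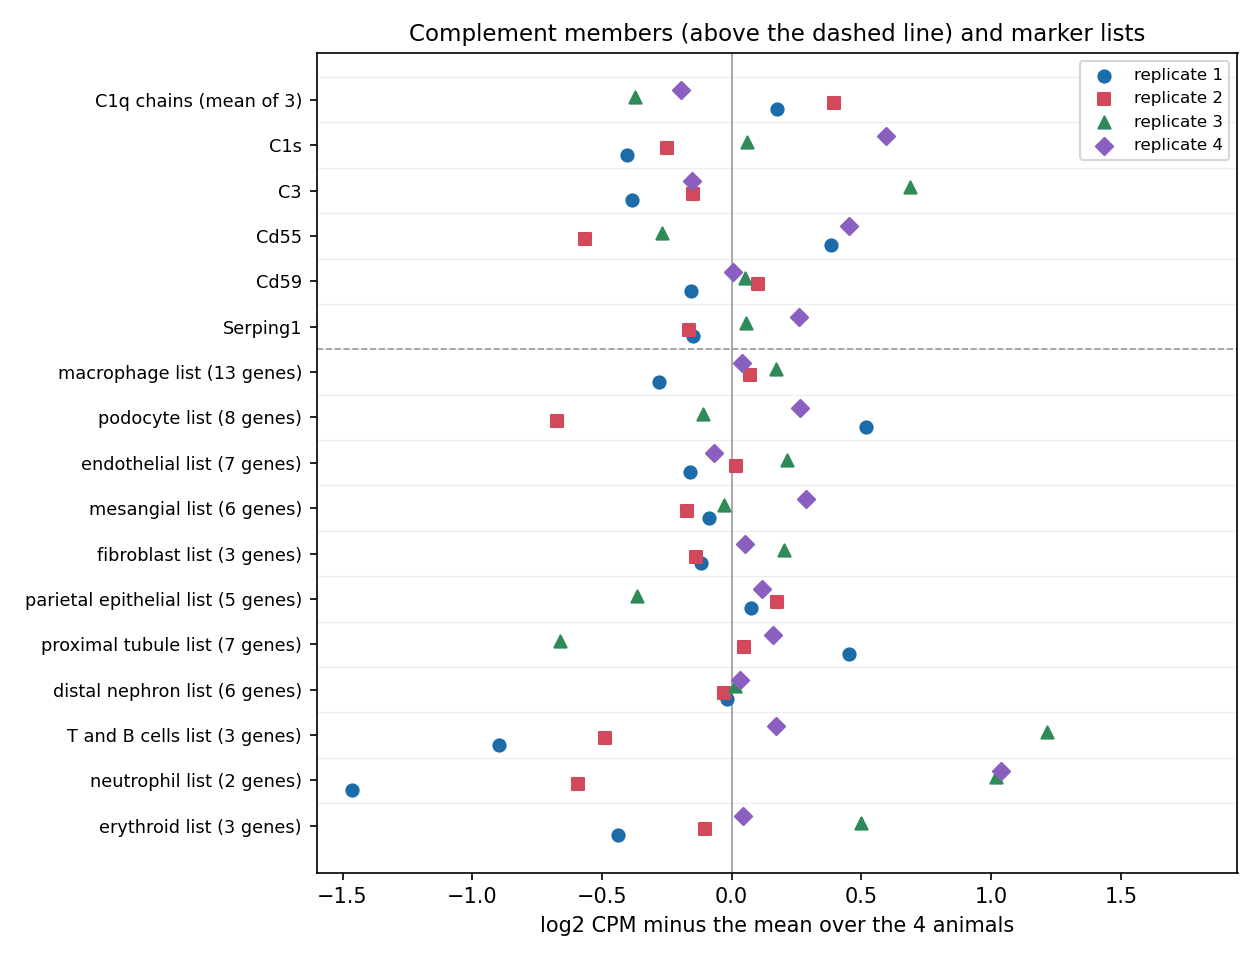
Difference of each animal from the mean over the 4 animals, in log2 CPM (horizontal axis), for complement members (above the dashed line) and for the mean of each cell type marker list (below it), with a point per animal. Cd55 and the podocyte list both had replicate 2 at the low end (-0.57 and -0.67), whereas the C1q chains had replicate 2 at 0.39 and the macrophage list at 0.07.

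Among the regulators, Cd55 varied most. Cd55, or decay-accelerating factor, is a lipid-anchored membrane protein that speeds the breakdown of the C3 convertases. Cd55 (ENSRNOG00000003927) had 1822, 1128, 1312 and 2149 reads in replicates 1 to 4, or 7.07, 6.12, 6.42 and 7.14 log2 CPM. Replicates 1 and 4 were high and replicates 2 and 3 low, with a mean of 6.69 ± 0.50 log2 CPM (SD, n = 4) and a 2.03-fold range (adjusted p = 2.5e-115, chi-square test on reads). Its SD was 3.43 times that of limma's trend for its level, with an unadjusted p of 0.0215 and an adjusted p of 0.912 (0.912 to 0.971 over the 9 alternatives run).

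The podocyte list and the proximal tubule list both had the same 2 animals highest. The podocyte list mean was 9.25, 8.06, 8.62 and 8.99 log2 CPM in replicates 1 to 4, and each of its 8 genes was highest in replicate 1 and lowest in replicate 2. The difference of Cd55 and the podocyte list mean was -2.18, -1.93, -2.20 and -1.85, with an SD of 0.17, against an SD of 0.50 for Cd55 alone. Against Nphs1, which encodes the slit diaphragm protein nephrin, the SD of the difference was 0.21, and against Synpo, which encodes the actin-associated synaptopodin, 0.42. The proximal tubule list stood at 0.45, 0.05, -0.66 and 0.16 from its own mean, so it was lowest in replicate 3 where Cd55 was lowest in replicate 2. The mesangial list, at -0.09, -0.17, -0.03 and 0.29, shared with Cd55 its lowest animal, replicate 2, and its highest, replicate 4. Mitochondrial genes took 7.63%, 12.8%, 9.65% and 7.74% of the reads, more in the 2 animals in which Cd55 and the podocyte list were low. With these genes out of the totals the SD of Cd55 was 0.46 (adjusted p = 7.82e-99, chi-square test on reads). The part of podocytes, of these other cell types and of RNA quality in the Cd55 level was not tested.

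Cd59, which blocks assembly of the terminal pore, was nearly even between animals. Cd59 (ENSRNOG00000042821, named Cd59b with Cd59 as a synonym in RefSeq) had 1832, 2621, 2395 and 2303 reads in replicates 1 to 4, or 7.08, 7.34, 7.29 and 7.24 log2 CPM. Replicate 1 was lowest and the mean was 7.24 ± 0.11 log2 CPM (SD, n = 4; adjusted p = 1.16e-07, chi-square test on reads). Without replicate 1 it did not pass (adjusted p = 0.0944, with 2.66e-13 to 0.0944 over the 7 alternatives run). Its SD was smaller than limma's trend for its level, at 0.765 times, and 24.5% of all genes had a smaller SD. The difference of Cd55 and Cd59 was -0.01 in replicate 1, -1.22 in replicate 2, -0.87 in replicate 3 and -0.10 in replicate 4, so the balance of these 2 membrane regulators differed between animals by up to 1.21 on the log2 scale.

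Serping1 encodes the C1 inhibitor, which inactivates C1r and C1s. Serping1 (ENSRNOG00000007457) had 690, 816, 899 and 1029 reads in replicates 1 to 4, or 5.67, 5.65, 5.87 and 6.08 log2 CPM. It was highest in replicate 4, as C1r and C1s were, with a mean of 5.82 ± 0.20 log2 CPM (SD, n = 4; adjusted p = 1.37e-10, chi-square test on reads). Without replicate 4 its SD was 0.12 (adjusted p = 0.00444, chi-square test on reads). Its distances from its own mean were -0.15, -0.16, 0.05 and 0.26, and those of the mesangial list were -0.09, -0.17, -0.03 and 0.29. The order of animals was the same. However, replicates 1 and 2 were nearly level for Serping1, and changed places with mitochondrial genes out of the totals. The part of mesangial cells in the Serping1 level was not tested. The difference of C1s and its inhibitor was -0.95, -0.78, -0.69 and -0.36 on the log2 scale, highest in replicate 4. That of C1r and Serping1 was 1.33, 1.00, 1.28 and 1.38, lowest in replicate 2.

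Cd46, or membrane cofactor protein, helps factor I to inactivate C3b, and in rodents it is expressed mainly in the testis. Cd46 (ENSRNOG00000007917) had 43, 70, 58 and 66 reads in replicates 1 to 4, or 1.68, 2.12, 1.93 and 2.13 log2 CPM. Its mean was 1.96 ± 0.21 log2 CPM. A difference between animals was not detectable at this depth (adjusted p = 0.387, chi-square test on reads, with 0.263 to 0.745 over the 6 alternatives run). It was the only member of the 9 with a mean under 5 CPM. Its neighbour in the RefSeq annotation, Cr1l, encodes Crry, the membrane regulator of C3b that most rodent cells carry. Cr1l had 2268, 2799, 2990 and 3226 reads, a mean of 7.54 ± 0.16 log2 CPM, and was lowest in replicate 1 and highest in replicate 4.

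Components were then set against regulators within each animal. The mean of the 5 components minus that of the 4 regulators was -0.07, 0.21, -0.09 and -0.32 on the log2 CPM scale in replicates 1 to 4. Because levels are not per length, its sign carries no meaning and only the differences between animals can be read. Replicate 2 had the highest balance and replicate 4 the lowest, 0.52 apart. Replicate 2 also had the lowest podocyte list (-0.67) and the highest share of mitochondrial reads (12.8%), and replicate 4 the highest mesangial list (0.29). Their part in the balance was not tested. The component mean was 0.16 above its average in replicate 2, where the C1q chains were highest, and the regulator mean was 0.22 above its average in replicate 4, where Cd55 and Serping1 were highest. With Cd46 left out the balance was -1.30, -0.85, -1.24 and -1.49. With medians over genes it was -0.71, 0.08, -0.96 and -1.03. Replicate 2 was again highest and replicate 4 lowest in both. Most of the components are C1q chains, which moved together, and both alternatives keep all of them. The other components had other highest animals, replicate 4 for C1s and replicate 3 for C3. The repeated order therefore does not stand for components as a class. Members of this balance did not move as a block. The log2 difference of C3 and Cd55, the inhibitor of its convertases, was -2.98, -1.80, -1.26 and -2.82, with an SD of 0.82.

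**Figure D3:**
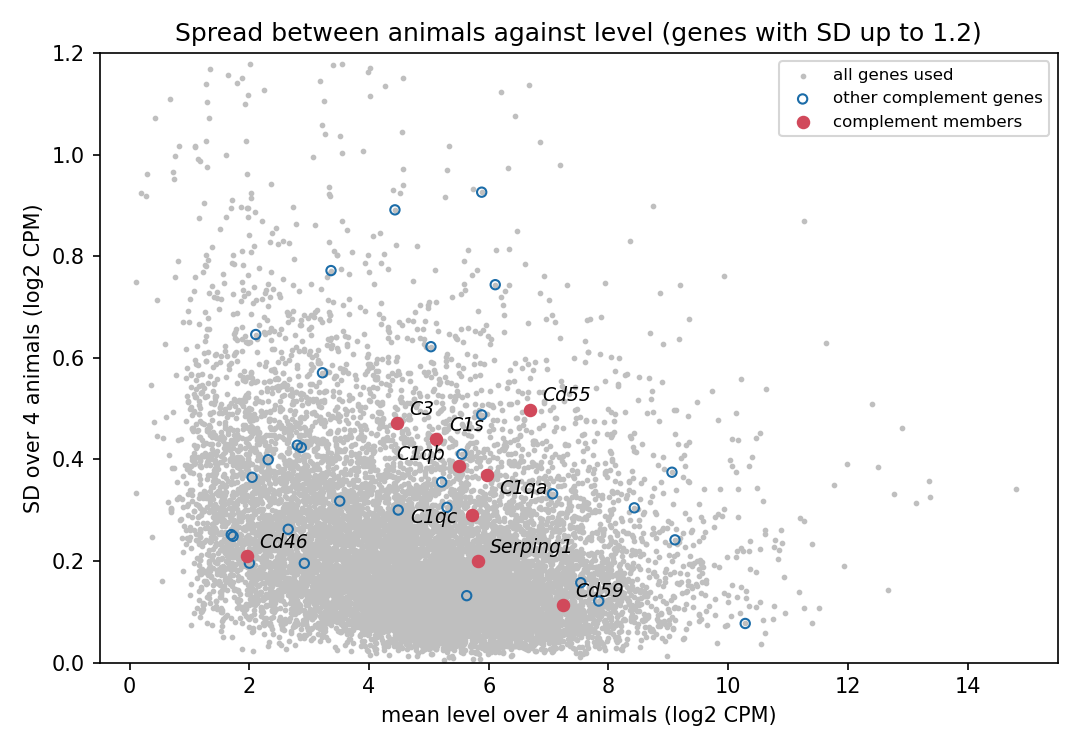
SD over the 4 animals (vertical axis, log2 CPM) against mean level (horizontal axis, log2 CPM) for all genes (grey), other complement genes (open blue circles) and the 9 members (red); 33 genes with an SD above 1.2 are not drawn. Cd55, C3 and C1s have an SD of 0.50, 0.47 and 0.44, and Cd59 has 0.11.

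The rest of the pathway was read from a list of 49 other complement genes, of which 30 were measured. Of these, 26 differed between animals by more than read sampling and 0 passed limma's variance test, with 7 at an unadjusted p under 0.05. The background shares were 69.5%, 0% and 5.47% as above. Their median SD was 0.34 log2 CPM. Replicate 1 was the lowest animal for 16 of the 30 genes, and replicate 4 the highest for 11. Over all genes these shares were 35% and 21.4%. Replicate 1 was also lowest for 9 of 13 macrophage, 2 of 2 neutrophil, 3 of 3 T and B cell and 3 of 3 erythroid markers. It was highest for 8 of 8 podocyte and 5 of 7 proximal tubule markers. The part of these cells in the pathway pattern was not tested. The range of each class in CPM also depends on transcript length and ranks no genes.

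In the classical and lectin class 10 of 14 genes were measured, from Fcna at 3.32 ± 0.63 CPM to C1r at 137 ± 31.0 CPM (SD, n = 4), and 8 of 10 passed the counting test. C4b, whose product is cleaved by C1s, had the largest SD of the class. It had 465, 2066, 540 and 1197 reads in replicates 1 to 4, or 5.10, 6.99, 5.14 and 6.30 log2 CPM, a 3.72-fold range (adjusted p = 2.4e-275, chi-square test on reads). C4a had 584, 2149, 747 and 1241 reads. The 2 genes are close copies, so the division of reads between them is uncertain, but both were highest in replicate 2 and lowest in replicate 1. C2, the other substrate of C1s, had 60, 119, 59 and 73 reads and was also highest in replicate 2. The C1q chains, C2, C4a and C4b thus had their highest value in replicate 2, in which 21.3% of all genes were highest. They are not independent cases, since the C1q chains moved together and C4a and C4b are close copies. Their profiles also differed, with replicate 1 above replicates 3 and 4 for C1q but lowest for C4a and C4b. The proteases C1r and C1s were highest in replicate 4, as 21.4% of all genes were. Of the 10 measured genes of the class, 5 were highest in replicate 2 and 4 in replicate 4. Replicate 2 also had the highest share of mitochondrial reads (12.8%, against 7.63% to 9.65% in the others) and the lowest podocyte list (-0.67, with 8 of 8 genes lowest there); their part in the levels of C1q, C2 and C4 was not tested. The lectin pathway protease Masp2, which also cleaves C4 and C2, had 71, 200, 183 and 148 reads and was highest in replicate 2, and its relative Masp1 had 107, 55, 43 and 68 reads and was highest in replicate 1.

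In the alternative and central class 2 of 4 genes were measured and both passed the counting test. C5, the start of the terminal pathway, had 836, 819, 482 and 748 reads, a mean of 48.2 ± 12.5 CPM (SD, n = 4) and the larger SD. It was lowest in replicate 3, the animal in which C3 was highest. Its distances from its own mean were 0.40, 0.11, -0.58 and 0.07 on the log2 CPM scale, and those of the proximal tubule list were 0.45, 0.05, -0.66 and 0.16; the part of tubular cells in the C5 level was not tested. Cfp, or properdin, which stabilises the alternative convertase, had 37.9 ± 8.54 CPM and was lowest in replicate 1. In the terminal class 2 of 6 genes were measured. C7 had 234, 601, 648 and 648 reads, a 2.46-fold range with replicate 1 low (adjusted p = 1.47e-35, chi-square test on reads). C8g had 48 to 73 reads and did not pass (adjusted p = 0.35).

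**Figure D4:**
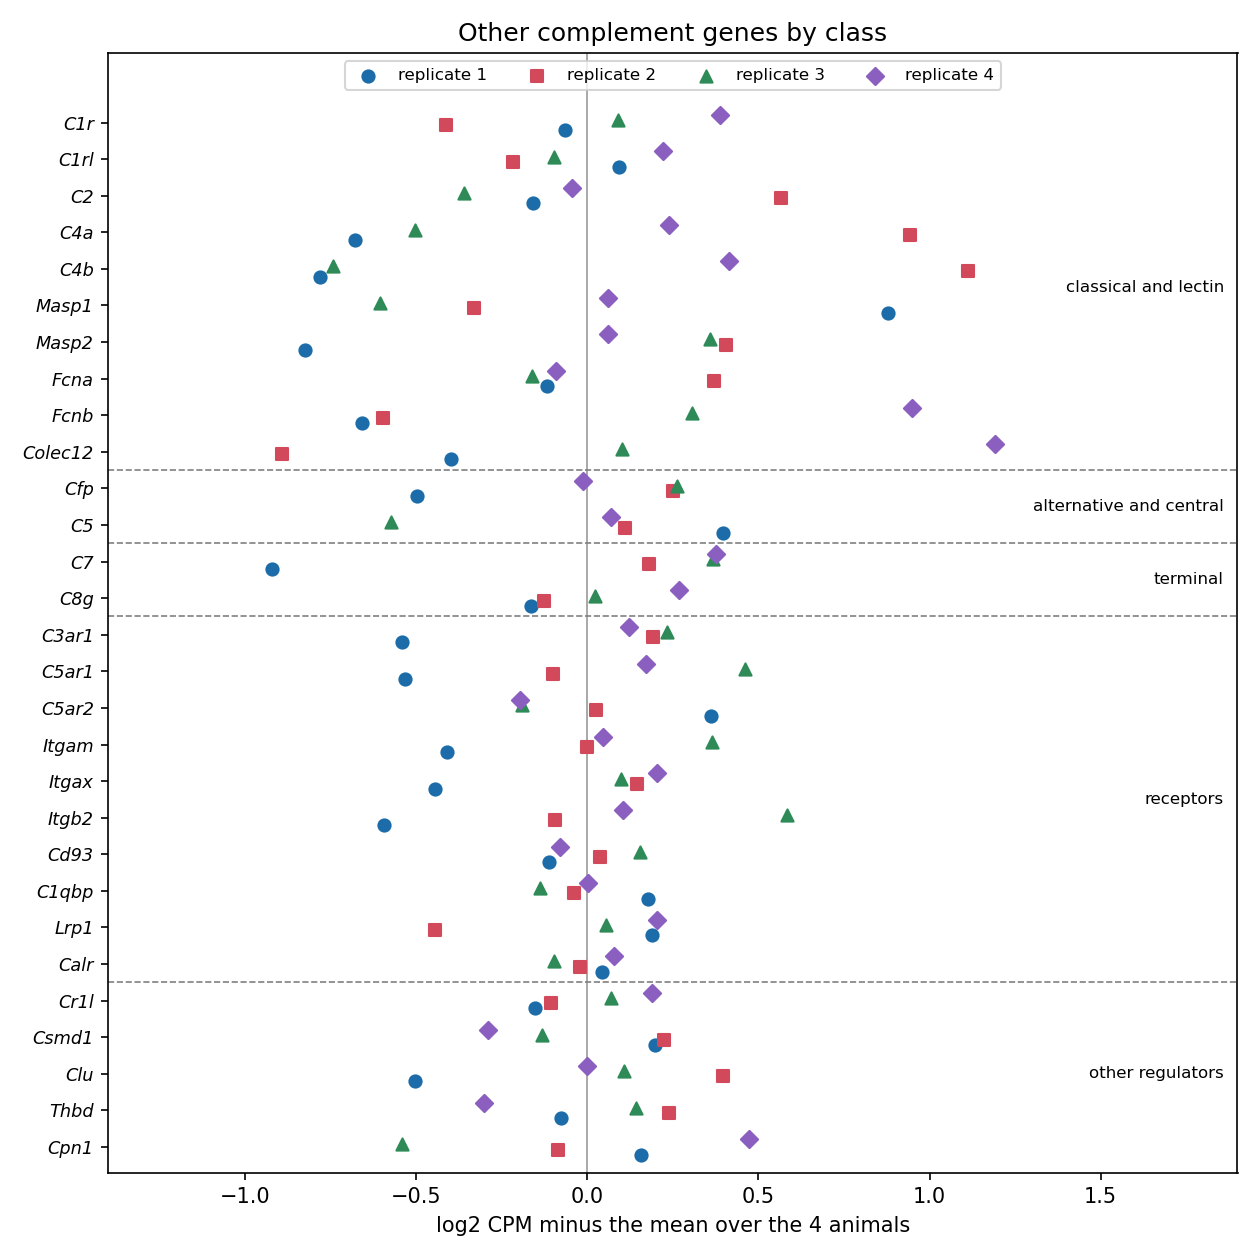
Difference of each animal from the mean over the 4 animals, in log2 CPM (horizontal axis), for 29 of the 30 other complement genes measured, grouped by class, with a point per animal. C4a and C4b had replicate 2 far to the right (0.94 and 1.11), and C7 had replicate 1 far to the left (-0.92).

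Of the receptors 10 of 12 were measured, from C3ar1 at 4.19 ± 0.94 CPM to Calr at 1248 ± 66.0 CPM (SD, n = 4), and 10 of 10 passed the counting test. Itgb2, the shared chain of the leukocyte complement receptors, had the largest SD, with 530, 895, 1357 and 967 reads, lowest in replicate 1 and highest in replicate 3. The receptors of the C3a and C5a fragments had low counts. C3ar1 had 38, 76, 74 and 68 reads and C5ar1 had 68, 110, 154 and 125, each lowest in replicate 1. Replicate 1 was also lowest for the macrophage, neutrophil, T and B cell, erythroid and endothelial lists, and for 35% of all genes. The part of these cells in the receptor levels was not tested. C5ar2, the second C5a receptor, had 109, 103, 84 and 83 reads and was instead highest in replicate 1 and lowest in replicate 4. Among other regulators 6 of 13 were measured and 5 passed, from Csmd1 at 3.25 ± 0.56 CPM to Thbd at 559 ± 91.0 CPM. Cpn1 had the largest SD of this class, at 0.43 log2 CPM. Clu, whose product clusterin binds the terminal complex, had 5111, 11387, 8822 and 8135 reads, lowest in replicate 1 and highest in replicate 2.

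Finally, for each of the 8 members that passed the counting test, the protein-coding genes with the most similar profile over the 4 animals were listed by the root mean square difference of mean-centred log2 CPM. With 4 samples unrelated genes can resemble a profile. The number of genes within 0.1 was 39 for C1qa, 30 for C1qb, 108 for C1qc and 33 for Cd55. It was only 6 for C1s and 9 for C3, but 518 for Serping1 and 2400 for Cd59. The nearest to C1qa were Ripk4 (0.019), Tcea3 (0.024) and Aspa (0.026), with C1qb in position 5 (0.032) and C1qc in position 16 (0.072). Those of C1qb were Tcea3, Ripk4 and C1qa, and those of C1qc were Gpat3, Dnah11 and Selenbp1. The nearest to C1s were Tnfaip3 (0.063), Icam1 (0.081) and Mrpl36 (0.082). Icam1 had 1032, 1279, 1435 and 2382 reads here, with the animals in the order found for C1s. The nearest to C3 were Smad6 (0.064), Treml4 (0.070) and Sec31b (0.078), and the nearest to Cd55 were Rimklb (0.030), Samd4a (0.030) and Fgf12 (0.032). Those of Cd59 were Jmjd4, Prune1 and LOC100365839, and those of Serping1 included Mctp2 and Slc27a3.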

How the data were processed

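The authors deposited log2 values per gene and sample for 13265 genes. Per the submitters' processing notes, HISAT2, featureCounts, Subread, limma and the build Rnor_6.0 were used; their versions, the use of strand and the filter on low genes are not given in the sources used here. From the values, each deposited log2 entry is that of a whole number of reads plus 0.5, scaled to CPM by the sample total: 100% of values came within 0.01 reads of a whole number. Reads were recovered on this basis. In 4 rows the columns were displaced, and these were left out; 116 rows that share a symbol were not used by symbol. Value columns of no sample numbered 0.

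Replicate numbers follow accession order. Reads per gene were compared between animals with a chi-square test (3 degrees of freedom) at the deposited totals. Variance beyond genes of like level was tested on log2(CPM + 1) with limma 3.58.1 (R 4.3.3), an intercept-only fit with a trended prior. Both ran on all 13261 genes, with Benjamini-Hochberg adjustment at 0.05. Scripts were tested on simulated data. The design did not fix the unit, which proved to be log2, so the counting test used recovered reads. Members, gene lists and tests were chosen with earlier results of these data known. Named genes were the members, in each pathway class the highest, lowest and most variable gene, and the 3 nearest genes per member; C1r, C2, C4a, C3ar1, C5ar1, C5ar2, Masp1, Masp2, Cr1l, Clu, Itgax, Csf1r, Nphs1 and Synpo were added after their values were seen. Of the listed pathway genes 1, Cd59b, is the member Cd59 under its RefSeq name and was left out of that list. Some genes that this rule selects are not reported here. Alternatives were median-of-ratios scaling, totals without mitochondrial genes, a mean of at least 5 CPM, a pseudocount of 0.1, a robust prior, medians over genes and leaving out each animal; leaving out Cd46 was chosen after seeing the data. Intervals and tests on reads cover counting error, and reads are not independent molecules.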

Additional observations from a re-analysis of the deposited data

Results flagged for a closer look

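Among 58 results examined (9 members, 30 other complement genes and 19 within-animal differences), 4 had an animal at a distance from the rest, measured by the ratio of its gap to the whole range, where chance gives about 1 in 20, or 2.9. None was a member. C7, a terminal component, was set apart by replicate 1 on the low side (ratio 0.848), at 4.11 log2 CPM against 5.21, 5.40 and 5.41. C3ar1, the C3a receptor, was also low in replicate 1 (0.856), at 1.50 against 2.24, 2.28 and 2.17 log2 CPM. Itgax, a chain of a leukocyte complement receptor, was low in replicate 1 too (0.839), at 4.04 against 4.63, 4.59 and 4.69 log2 CPM. Fcna, a ficolin of the lectin pathway, was high in replicate 2 (0.865), at 2.10 against 1.61, 1.57 and 1.64 log2 CPM, and did not differ by more than read sampling could show (adjusted p = 0.169, chi-square test on reads).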

How the results depend on the processing

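The number of members past the counting test was 8 in each alternative run except without replicate 1 and without replicate 3, so it ran from 7 to 8 when single animals were left out; Cd59 and C3 were the members lost (adjusted p = 0.0944 and 0.159, chi-square test on reads). For the other complement genes that number was 20 to 26 without single animals, lowest without replicate 1, 25 with median-of-ratios scaling, 26 with mitochondrial genes out of the totals, and 24 with a mean of at least 5 CPM, a filter that only 25 of the 30 genes passed. The numbers under limma's variance test were 0 in each alternative run, with 0 to 0 when animals were left out. In the main run the smallest adjusted p of that test over all genes was 0.912, so these counts of 0 say little about single genes. The mean of components minus regulators, -0.07, had a different sign without replicate 4 (0.0166), and ran from -0.16 to 0.0166 over the fits that each left out an animal. It was -0.66 with medians over genes and -1.22 without Cd46. The change of sign follows from leaving out the animal with the lowest value (-0.32), and the sign itself carries no meaning because levels are not per length. With mitochondrial genes out of the totals the mean of every gene rose by the same 0.14 log2 CPM, which exceeds the SD over animals of Cd59 alone among the members (mean 7.38 log2 CPM). The mean of Cd46 moved to 2.29 with a pseudocount of 1 CPM. For 7 of the 9 members the order of the animals was the same under all 3 scalings; for Cd46 and Serping1 a pair of close animals changed places. No paired analysis was possible because there is a single group.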
